A study of Harpegnathos saltator with 19 samples.

Results

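The transcripts described here are those of 3 nuclear receptor genes of the ant Harpegnathos saltator: Ecr (LOC105187295), usp (LOC105190116) and Hr96 (LOC105184804). They were taken by these identifiers from a table of 14001 genes, and all 3 passed the filter on low values that kept 9381 genes for testing. The measurements are RNA-seq of the central brain of 19 workers, 1 library per ant, dissected 10 h after an injection into the head. In 7 ants the injection held 100 ng of the ecdysteroid 20-hydroxyecdysone (20E), in 7 others 100 ng of juvenile hormone III (JH3), and 5 control ants were injected with DMSO. The labels say that the hormones were dissolved in a glucose solution, give no amount for DMSO, and give 1 dose and 1 time point. Whether the hormone solutions also held DMSO is not stated. A difference between a hormone group and DMSO therefore cannot be told apart from a difference of vehicle. Each library also has a run label, 190514 for the first 3 replicates of every group (9 libraries) and 200212 for the remaining 10. Because a whole central brain was measured, fewer cells of a type and less RNA per cell cannot be told apart.

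Ecdysteroids act in insects through a receptor made of a pair of nuclear receptor proteins. EcR, the product of Ecr, binds the hormone, and Ultraspiracle, the product of usp and the insect counterpart of the vertebrate retinoid X receptor, is its partner on DNA. With hormone bound, the pair switches on a first set of genes, many of which encode further nuclear receptors such as E75, Hr4, Hr3 and Hr39. In the fly, EcR also controls remodelling of neurons at metamorphosis. Hr96 is another nuclear receptor, and in the fly it takes part in the response to foreign compounds and in the handling of cholesterol and stored fat.

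The libraries held 14.05 to 26.09 M reads on genes. The fewest reads on a member in any library were 1975 for Ecr, 5132 for usp and 873 for Hr96, which give a counting error of 2.25%, 1.40% and 3.38%. Depth therefore limited these values less than the spread between ants did. After group and run means were removed, 20E replicate 6 and JH3 replicate 1 lay farthest from the rest, with a median absolute deviation over genes of 0.29 and 0.20 on the log2 scale against 0.08 to 0.18 in the other libraries. The 14 neuron markers and 7 glial markers with a symbol were detected in every group. Their summed level ran from 858 to 1199 FPKM (the authors' unit, reads scaled for gene length and library depth) in DMSO, 919 to 1530 in 20E and 879 to 1205 in JH3 for neurons, and from 774 to 1071, 529 to 921 and 442 to 878 for glia. Most of the glial sum was Gs2, with means of 732, 558 and 501 FPKM in DMSO, 20E and JH3. Gs2 did not pass against DMSO (limma adjusted p = 0.492 for 20E and 0.184 for JH3). Of the glial markers, moody and Gat-a were lower in JH3 than in DMSO (log2 -0.63 and -0.62, limma adjusted p = 0.0222 and 0.0398). Gli was higher in 20E (0.57, limma adjusted p = 0.0237), and the part of glia in the results below was not tested. None of the neuron markers passed against DMSO. The 12 photoreceptor and eye markers summed to 66.9 to 519 FPKM in DMSO, 87.9 to 483 in 20E and 65.2 to 454 in JH3. For 7 fat body and haemolymph markers the sums were 471 to 653, 489 to 618 and 417 to 660 FPKM. For 10 muscle markers they were 118 to 188, 113 to 209 and 183 to 376 FPKM. A large part of these muscle sums was Mef2, with means of 79.7, 71.7 and 143 FPKM. Of the 9 muscle markers tested, only Mef2 passed against DMSO. It was higher in JH3 (log2 0.75, limma adjusted p = 0.00509), as 0.629% of all genes were. The part of such tissue in the results below was not tested.

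usp was the most abundant member, Hr96 the middle one and Ecr the least abundant, in 19 of 19 libraries. FPKM is corrected for gene length, so levels of different genes can be set side by side. In DMSO, usp had 34.0 ± 5.17 FPKM (SD, n = 5), Hr96 21.0 ± 2.34 and Ecr 6.13 ± 0.649. These levels lay above those of 90.3%, 82.2% and 43.2% of the genes tested. Among the 13 nuclear receptor genes with a symbol, usp ranked below 2 others in DMSO, Hr38 (115 ± 44.6 FPKM), an orphan receptor gene that neuronal activity induces in insects, and the ecdysone target E75 (74.4 ± 11.5 FPKM). The DMSO libraries of usp (28.1 to 41.9 FPKM) overlapped neither those of E75 (64.0 to 92.4) nor those of Hr96 (18.5 to 23.6). Hr96 overlapped the next gene, Hr3 (12.5 to 24.5), and Ecr, the eighth, overlapped both of its neighbours in that order, ERR (6.75 to 11.1) and Hr39 (2.05 to 5.38). At the bottom, tll (at most 0.0590 FPKM in any library) and Hr83 (at most 0.0219) were barely detected and were not tested.

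Ecr, whose product binds 20E, did not pass the test under either hormone. In DMSO the Ecr levels were 5.67, 5.29, 6.23, 6.81 and 6.67 FPKM. In 20E they ran from 5.20 to 8.66 FPKM with a median of 6.32, and in JH3 from 5.55 to 8.04 with a median of 7.12. The 3 groups overlapped, with means of 6.13 ± 0.649, 6.54 ± 1.21 and 6.96 ± 0.948 FPKM (n = 5, 7 and 7). The log2 fold change of Ecr, on the log2(FPKM + 0.5) scale, was 0.05 ± 0.11 (SE) for 20E with DMSO (95% interval -0.19 to 0.28, limma adjusted p = 0.999). It was 0.14 ± 0.11 for JH3 with DMSO (-0.10 to 0.37, adjusted p = 0.687) and -0.09 ± 0.10 for 20E with JH3 (-0.30 to 0.12, adjusted p = 0.679). As folds, the intervals against DMSO ran from 0.879 to 1.22 under 20E and from 0.936 to 1.29 under JH3. Larger changes of Ecr than these lie outside the 95% intervals, while changes within them remain possible. The intervals were not adjusted over genes, so their bounds are not the smallest change that would have passed. The 20E value was -0.00472 without 20E replicate 6, which held the highest Ecr level with the authors' scaling (8.66 FPKM). Scaled to total reads, Ecr in that library was 6.67 FPKM. With this scaling the 20E value was -0.02, but the median of all genes was then -0.07, and Ecr lay 0.05 above it. Adjusted p-values here and below are limma's with Benjamini-Hochberg adjustment over the 9381 genes.

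**Figure D1:**
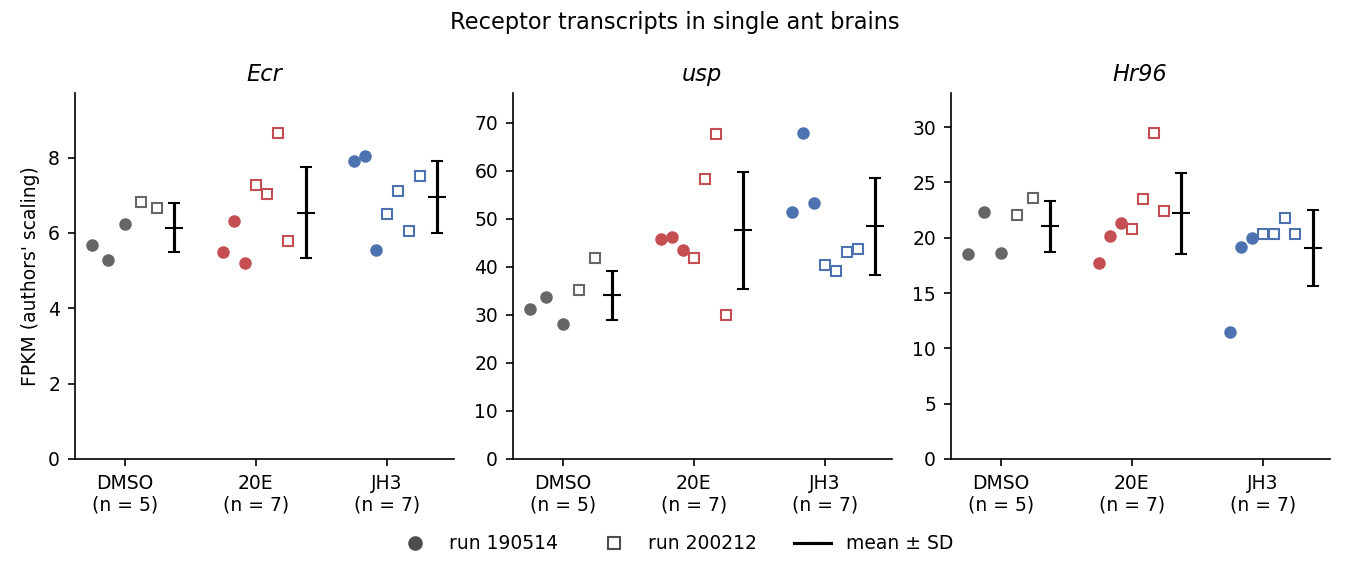
FPKM of Ecr, usp and Hr96 (vertical axes, from 0, in FPKM with the authors' scaling) in each library of the DMSO, 20E and JH3 groups; filled circles are run 190514, open squares run 200212, and the bars give mean ± SD. The Ecr groups overlap, 10 of the 14 hormone libraries of usp lie above every DMSO library, and the extremes of Hr96 are JH3 replicate 1 (11.5 FPKM) and 20E replicate 6 (29.5 FPKM).

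usp, the partner gene, had higher means in both hormone groups than in DMSO, but neither difference passed the threshold over all genes. In DMSO the usp levels were 31.2, 33.8, 28.1, 35.1 and 41.9 FPKM. In 20E they ran from 29.9 to 67.6 with a median of 45.8, and in JH3 from 39.2 to 67.9 with a median of 43.6. In each hormone group 5 of 7 libraries, 10 of 14 in all, lay above the highest DMSO library, and 1.25% of the genes tested had at least as many. The means were 34.0 ± 5.17 FPKM in DMSO (n = 5), 47.6 ± 12.1 in 20E and 48.4 ± 10.1 in JH3 (n = 7 each). The log2 fold change was 0.46 ± 0.17 for 20E with DMSO (95% interval 0.10 to 0.82, unadjusted p = 0.0152, limma adjusted p = 0.261). It was 0.50 ± 0.17 for JH3 with DMSO (0.14 to 0.86, unadjusted p = 0.00922, limma adjusted p = 0.318). These comparisons share the DMSO libraries, and with them any difference of vehicle. An unadjusted p under 0.05 was reached by 9.04% of the genes for 20E and by 8.29% for JH3.

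usp did not pass between the hormone groups. Directly compared, 20E and JH3 differed by -0.04 ± 0.16 on the log2 scale (95% interval -0.37 to 0.29, limma adjusted p = 0.912), that is between 0.776 and 1.22 times as folds. Within the runs the signs were opposite, at -0.34 in run 190514 (limma adjusted p = 0.424) and 0.18 in run 200212 (limma adjusted p = 0.770), and the test of that difference gave 0.52 ± 0.28 (limma adjusted p = 0.990). When the mean of both hormones was set against DMSO, the log2 fold change of usp was 0.48 ± 0.15 (0.16 to 0.80, limma adjusted p = 0.213), and 2.65% of the genes had a smaller p. That contrast was chosen with earlier results of these data known. Ecr gave 0.09 ± 0.10 in it (limma adjusted p = 0.949) and Hr96 -0.09 ± 0.10 (limma adjusted p = 0.954). Of all genes, 1.38% passed it. With library weights usp passed it (0.47, limma adjusted p = 0.0489). Over 32 alternatives the limma adjusted p of usp ran from 0.0523 to 0.999 for 20E and from 0.0450 to 0.931 for JH3. In the contrast of both hormones it was lowest, at 0.0389, within run 190514, where 0.458% of the genes passed.

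The runs differed in how far usp lay from the control. In run 190514 the DMSO libraries had 31.2, 33.8 and 28.1 FPKM, the 20E libraries 45.8, 46.2 and 43.5, and the JH3 libraries 51.4, 67.9 and 53.3. All 6 hormone libraries of that run lay above its 3 DMSO libraries, as was the case for 1.55% of the genes tested. In run 200212 the DMSO libraries had 35.1 and 41.9 FPKM, the 20E libraries 41.8, 58.3, 67.6 and 29.9, and the JH3 libraries 40.3, 39.2, 43.0 and 43.6. There the groups overlapped. Within run 190514 alone, usp passed for JH3 with DMSO (log2 0.87, limma adjusted p = 0.0450), as 0.149% of the genes did, and did not pass for 20E with DMSO (0.54, limma adjusted p = 0.107; 1.28% of the genes passed). Within run 200212 the values were 0.11 for JH3 (limma adjusted p = 0.931) and 0.29 for 20E (limma adjusted p = 0.999). The test of the difference itself, run 200212 minus run 190514, gave -0.76 ± 0.31 for JH3 with DMSO (95% interval -1.42 to -0.11, unadjusted p = 0.0250, limma adjusted p = 0.984). For 20E with DMSO it gave -0.24 ± 0.31 (limma adjusted p = 0.998), with -0.03 without 20E replicate 7 and -0.42 without 20E replicate 6. No gene of the table passed these tests by limma (0%), with 450 genes at an unadjusted p under 0.05 for JH3 and 207 for 20E. With library weights, whose estimate stopped before full convergence in this model, 17 genes passed for JH3, and usp gave -0.86 (limma adjusted p = 0.0624).

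**Figure D2:**
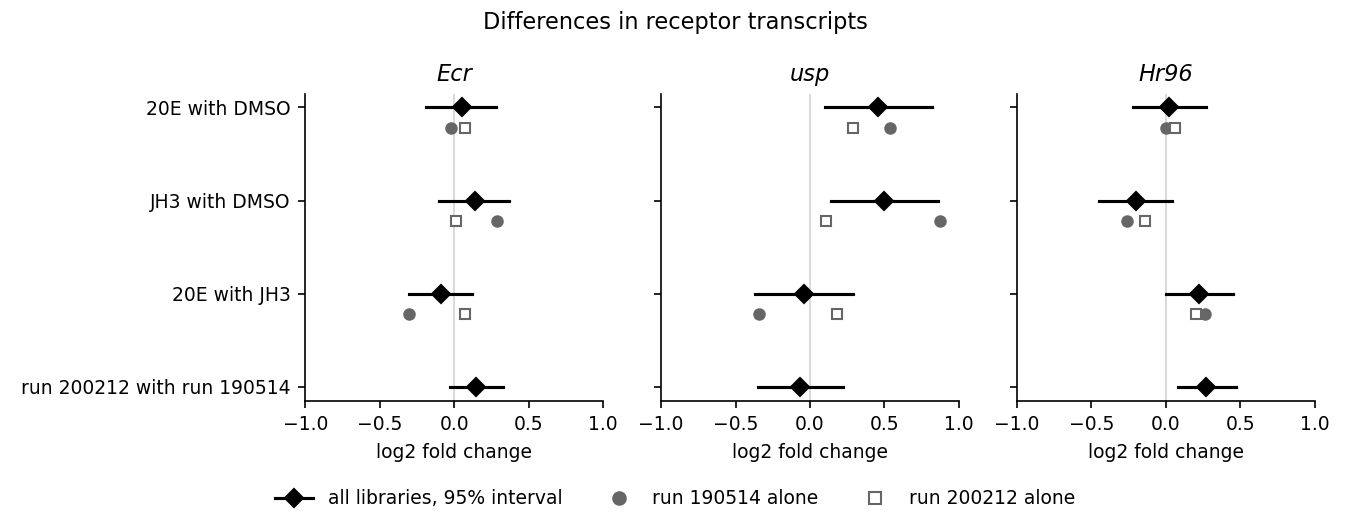
Log2 fold changes of Ecr, usp and Hr96 (horizontal axes) for the 3 group comparisons and for the runs; diamonds and lines give the estimate and 95% interval from all 19 libraries, circles and squares the estimate within each run. The usp intervals against DMSO (0.10 to 0.82 and 0.14 to 0.86) lie above 0 before adjustment, and its JH3 estimates are 0.87 and 0.11 within the runs.

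How each library was scaled affected the spread of usp. The authors' scale divided by total reads on genes ran from 0.770 in 20E replicate 6 to 1.135 in DMSO replicate 3. With scaling to total reads the DMSO libraries of usp drew closer together (34.8 ± 2.26 FPKM, n = 5, lowest 31.9). The hormone libraries then ran from 30.1 to 64.2, and 13 of 14 lay above every DMSO library, as was so for 0.426% of the genes tested. The exception was 20E replicate 7, at 30.1 FPKM. On this scale usp gave log2 0.39 for 20E (unadjusted p = 0.00787, limma adjusted p = 0.145), 0.50 for JH3 (unadjusted p = 0.00136, limma adjusted p = 0.0747) and 0.44 for both (limma adjusted p = 0.0639). So usp stayed short of the threshold in each of them, while 3.60%, 1.61% and 1.85% of the genes passed.

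**Figure D3:**
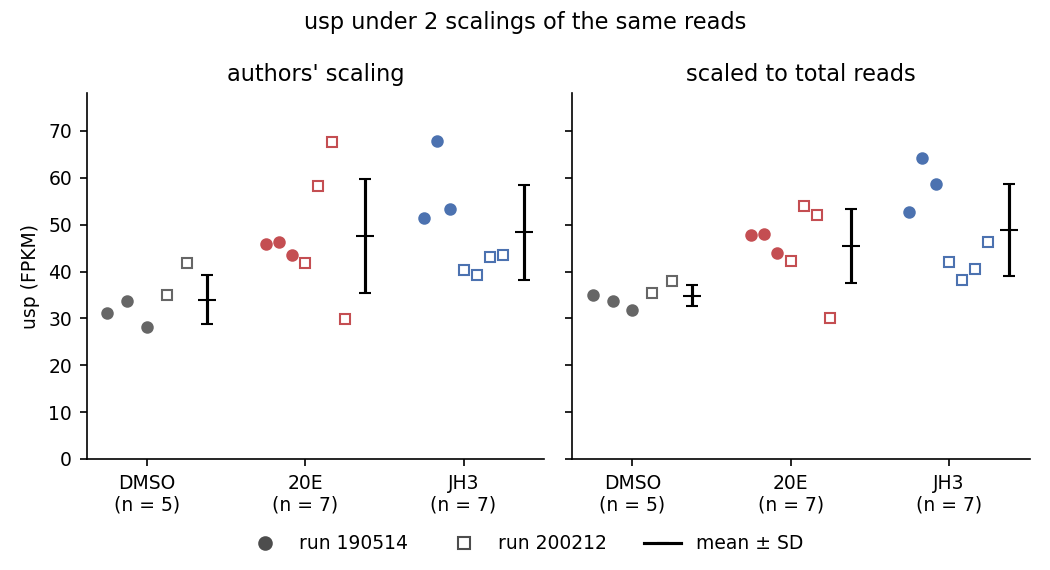
usp in each library with the authors' scaling (left) and with the same reads scaled to total reads (right); the vertical axis starts at 0 and is in FPKM, symbols mark the runs and bars give mean ± SD. The DMSO libraries span 28.1 to 41.9 on the left and have an SD of 2.26 around 34.8 on the right, and 20E replicate 7 is the only hormone library below them on the right.

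The ratio of usp to Ecr within a library does not depend on how libraries are scaled. It was 5.51, 6.40, 4.50, 5.16 and 6.29 in the DMSO libraries. In 20E it ran from 5.17 to 8.36 with a median of 7.80, and in JH3 from 5.51 to 9.60 with a median of 6.49. The groups overlapped: 5 of 7 20E libraries and 4 of 7 JH3 libraries lay above the highest DMSO ratio, and none lay below the lowest. Of all genes tested, 1.01% had at least as many hormone libraries (9 of 14) above DMSO when set against Ecr. The means were 5.57 ± 0.792 in DMSO, 7.29 ± 1.32 in 20E and 7.02 ± 1.49 in JH3. Set against Hr96, usp had a ratio of 1.51 to 1.78 in DMSO, 1.33 to 2.58 in 20E and 1.93 to 4.49 in JH3. All 7 JH3 libraries and 6 of 7 20E libraries lay above the highest DMSO ratio, as at least as many did for 1.16% and 2.68% of the genes (0.533% for both counts together, 13 of 14). The highest, 4.49, was that of JH3 replicate 1, where Hr96 was lowest.

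The low usp level of 20E replicate 7 (29.9 FPKM, the lowest of the 20E group and eighteenth of 19) stood beside high levels of ecdysone targets in the same brain. E75, an early target of the receptor, had 621 FPKM there, within the 472 to 882 of the 20E group and above the 64.0 to 92.4 of DMSO. Hr4, another target, had 25.1 FPKM, the lowest of the 20E group but above the 0.760 to 1.57 of DMSO. Without this library usp gave 0.55 for 20E with DMSO (limma adjusted p = 0.0615). With the authors' scaling, the highest 20E level of usp was in replicate 6 (67.6 FPKM). That library also held the highest summed level of neuron markers (1530 FPKM). Its authors' scale over total reads was the lowest of all libraries (0.770), and this enters both values. Scaled to total reads, its usp was 52.0 FPKM, below the 54.0 of 20E replicate 5. The part of scale or neuron content in the usp value was not tested. Without replicate 6 and JH3 replicate 1, usp gave 0.37 for 20E (limma adjusted p = 0.309) and 0.50 for JH3 (limma adjusted p = 0.211).

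Hr96 did not pass the test between any of the groups, nor did Ecr or usp between the hormones, where 5.34% of all genes passed. Its DMSO libraries had 18.5, 22.3, 18.6, 22.1 and 23.6 FPKM. In 20E it ran from 17.7 to 29.5 with a median of 21.3, and in JH3 from 11.5 to 21.8 with a median of 20.3. Over both runs all groups overlapped, and 20E replicate 6 and JH3 replicate 1 held the highest and the lowest of the 19 values. The log2 fold change was 0.02 ± 0.12 for 20E with DMSO (95% interval -0.22 to 0.27, limma adjusted p = 0.999) and -0.20 ± 0.12 for JH3 with DMSO (-0.45 to 0.04, limma adjusted p = 0.648). For 20E with JH3 it was 0.22 ± 0.11 (0.00 to 0.45, unadjusted p = 0.0461, limma adjusted p = 0.344). Without JH3 replicate 1 the last value became 0.13 (limma adjusted p = 0.580) and that of JH3 with DMSO -0.09 (limma adjusted p = 0.855). In run 200212 alone, which does not hold that library, JH3 with DMSO gave -0.14 (limma adjusted p = 0.877). There the JH3 libraries had 20.3 to 21.8 FPKM and the DMSO libraries 22.1 and 23.6. The 20E value was -0.02 without 20E replicate 6. With scaling to total reads it was -0.05, which is 0.02 above the median of all genes on that scale (-0.07).

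Between the runs Hr96 differed, and the receptor pair did not pass. Over all groups Hr96 had 18.8 ± 3.11 FPKM in run 190514 (n = 9) and 22.5 ± 2.76 in run 200212 (n = 10). The log2 difference was 0.27 ± 0.09 (95% interval 0.08 to 0.47, limma adjusted p = 0.0178). Since 50.9% of all genes passed between the runs, this is no mark of Hr96. With scaling to total reads the value was 0.16 (limma adjusted p = 0.125), where the median of all genes shifted to -0.10, so Hr96 lay 0.26 above that median. Ecr gave 0.15 ± 0.09 (limma adjusted p = 0.166, and 0.22 with adjusted p = 0.00698 under library weights), and usp -0.07 ± 0.14 (limma adjusted p = 0.708). Of the 11 nuclear receptor genes tested 8 were higher in run 200212 and none was lower, against 25.6% of all genes higher.

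The other nuclear receptor genes include known targets of the receptor pair. Of the 11 tested, 4 rose under 20E and none fell, against 2.59% of all genes that rose. They were the early gene E75 (log2 2.96 ± 0.13, limma adjusted p = 5.55e-11), Hr4 (4.28 ± 0.14, 4.39e-13), Hr3 (0.71 ± 0.12, 8.86e-04) and Hr39 (0.71 ± 0.13, 0.00215). The 20E mean was 619 ± 137 FPKM for E75, 33.1 ± 8.22 for Hr4, 29.6 ± 4.04 for Hr3 and 6.49 ± 1.98 for Hr39. Ecr had a lower level (6.54 FPKM) than 3 of them in the 20E brains, and about that of Hr39. The interval of Ecr under 20E (-0.19 to 0.28) and that of usp (0.10 to 0.82) lay below the 4.28 and 2.96 of Hr4 and E75, while the 0.71 of Hr3 and Hr39 lay within the usp interval. Under JH3, E75 (1.08 ± 0.13, limma adjusted p = 1.32e-04) and Hr4 (0.63 ± 0.14, 0.0322) rose and none fell, against 0.629% of all genes that rose. The median log2 fold change of the 11 genes was 0.05 under 20E and 0.19 under JH3, against -0.01 and 0.00 over all genes.

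The receptor genes ERR, Hnf4, Hr38 and ftz-f1 did not pass against DMSO. ERR, an orphan receptor gene that in the fly controls sugar metabolism, had 8.59 ± 1.71 FPKM in DMSO, 8.35 ± 1.36 in 20E and 7.81 ± 0.700 in JH3 (log2 -0.08 ± 0.09 and -0.16 ± 0.09, limma adjusted p = 0.999 and 0.648). Hnf4, which in the fly controls fat breakdown, had 1.64 ± 0.413, 1.38 ± 0.387 and 2.44 ± 0.563 FPKM. It differed between the hormones, being lower in 20E than in JH3 (log2 -0.65 ± 0.15, limma adjusted p = 0.00926). So did Hr38 (-0.81 ± 0.21, limma adjusted p = 0.0211). Of the 11 genes 4 were higher and 2 lower in 20E than in JH3, against 3.90% and 1.44% of all genes. The late gene ftz-f1, which in the fly marks the time after an ecdysone pulse, gave -0.29 ± 0.16 under 20E (limma adjusted p = 0.698) and 0.12 ± 0.16 under JH3 (limma adjusted p = 0.779).

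**Figure D4:**
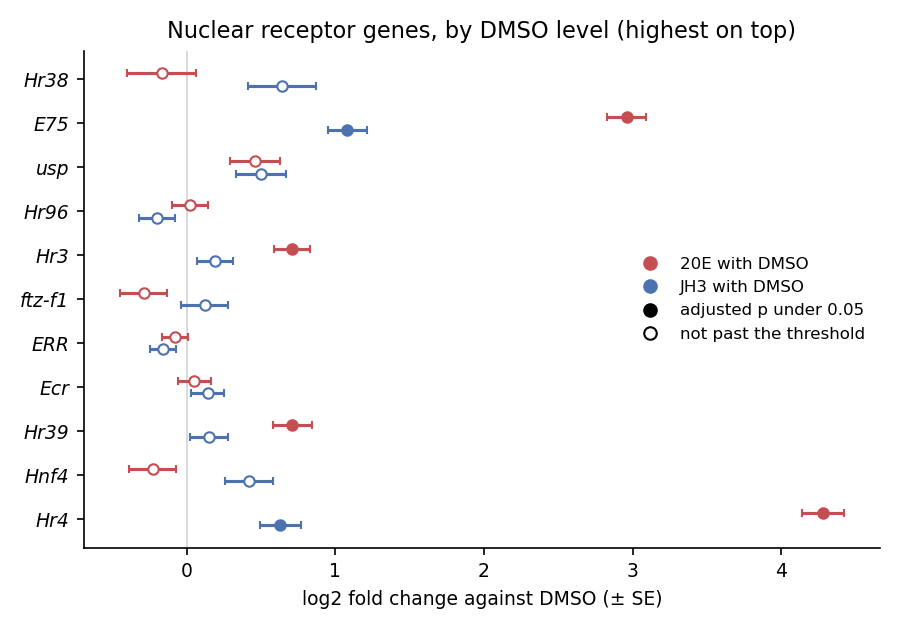
Log2 fold changes against DMSO (horizontal axis, ± SE) of the 11 nuclear receptor genes tested, ordered by their DMSO level with the highest on top; red is 20E, blue is JH3, and filled symbols have an adjusted p under 0.05. Ecr, usp and Hr96 have open symbols for both hormones, while E75 and Hr4 are filled for both.

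Genes of receptor partners and co-regulators did not pass under the hormones, with 1 exception. Of the 14 tested, 1 rose under 20E and none fell, against 2.59% of all genes that rose. It was Utx, which encodes a histone demethylase that in the fly acts with EcR (16.5 ± 7.44 FPKM in DMSO, 27.8 ± 8.44 in 20E, log2 0.65 ± 0.13, limma adjusted p = 0.00692). Smr, a co-repressor gene of EcR in the fly, gave 0.36 ± 0.11 (limma adjusted p = 0.119), and rig, a co-activator gene, 0.03 ± 0.09 (limma adjusted p = 0.999). None of the 14 passed under JH3. Their median log2 fold change was 0.05 under 20E and 0.01 under JH3. A list of ecdysone response genes, which shares E75, Hr3, Hr4 and Hr39 with the receptors, had 10 of 14 members higher under 20E and 4 under JH3, and none lower, against 2.59% and 0.629% of all genes higher.

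Of the 11 tested genes around Hr96 and the handling of foreign compounds or sterols, Hr96 included, 1 rose and 1 fell under 20E. Cyp18a1, whose enzyme inactivates ecdysteroids, rose (0.620 ± 0.252 to 2.75 ± 1.32 FPKM, log2 1.42 ± 0.28, limma adjusted p = 0.00453). The cytochrome P450 gene Cyp4aa1 fell (1.70 ± 0.399 to 0.496 ± 0.164 FPKM, log2 -1.06 ± 0.17, limma adjusted p = 9.91e-04). Against DMSO 3.34% of all genes passed under 20E and 0.927% under JH3, where none of the 11 did. Npc1a, a cholesterol transport gene, gave -0.11 ± 0.08 under 20E (limma adjusted p = 0.978), and cnc, which encodes a stress response factor, -0.10 ± 0.12 (limma adjusted p = 0.999). Utx, Cyp18a1 and Cyp4aa1 also differed between 20E and JH3 directly, at 0.59, 1.21 and -0.59 (limma adjusted p = 0.00399, 0.00475 and 0.0303).

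Across the 19 brains Ecr and usp levels went together with the authors' scaling. Pearson's r of the log2 levels was 0.55 (permutation p = 0.0139, adjusted over the 3 pairs of members p = 0.0418) and Spearman's rho 0.42 (permutation p = 0.0782, adjusted p = 0.235). Within the runs r was 0.53 (n = 9) and 0.75 (n = 10), and it was 0.49 without the 2 libraries farthest from the median of Ecr and 0.39 without 20E replicate 6 and JH3 replicate 1. After group and run means were removed r was 0.61 (permutation p = 0.00495, adjusted p = 0.0148), rho 0.47 (permutation p = 0.0423, adjusted p = 0.127), and r without the 2 farthest libraries 0.50 (0.51 when JH3 replicate 1 and 20E replicate 6 were left out). With scaling to total reads r fell short of the threshold (0.32 for levels, permutation test adjusted p = 0.178, and 0.31 after removing group and run means, adjusted p = 0.301). The libraries share 1 scale factor each, which enters both genes. Hr96 showed no relation that passed: r was 0.00 with Ecr and 0.08 with usp (permutation p = 0.994 and 0.759, adjusted p = 0.994 for both; rho 0.09 and -0.05, permutation p = 0.707 and 0.842, adjusted p = 0.842 for both). Without the 2 libraries farthest from the median of the first gene these r were -0.29 and -0.17. Within the runs they were -0.64 and 0.48 with Ecr, and -0.21 and 0.66 with usp.

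usp varied more around its group and run means than most genes of its level, and other genes varied with it. Its SD after group and run means were removed was 0.31 on the log2 scale, larger than that of 88.2% of the 627 genes within 0.5 log2 units of its level. A hormone effect that differs between the runs (-0.76 for usp under JH3) stays in this SD, so it is not only spread between brains. The SD and the likeness below used the authors' scaling. Ecr (0.19) and Hr96 (0.20) were near the middle, above 46.0% and 55.6% of such genes. The genes most like usp over the 19 libraries, by Pearson's r of these residuals, were Drep2 (r = 0.96), whose fly product is found at synapses, and shg (0.93), the E-cadherin gene. They were followed by Task6 (0.93), a potassium channel gene, and Lar (0.92), a receptor phosphatase gene of axon guidance. Without 20E replicate 6 and JH3 replicate 1 these r were 0.94, 0.91, 0.95 and 0.91. None of these 4 passed against DMSO, with log2 fold changes from -0.08 to 0.23 under 20E and from -0.05 to 0.34 under JH3. In 20E replicate 7, where usp was low, Task6 (12.9 FPKM) and Drep2 had their lowest level of all 19 libraries, while shg (6.02 FPKM, 14 of 19 from the top) and Lar (18.7 FPKM, 10 of 19) did not. Since these genes were picked for likeness over the same libraries, low levels shared with usp are no separate result.

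For Ecr the most alike genes were Gdi (r = 0.86), which encodes a regulator of Rab proteins, the splicing factor gene pasilla (0.78), the flotillin gene Flo2 (0.78) and the calcium-dependent kinase gene CaMKI (0.76). Without 20E replicate 6 and JH3 replicate 1 these were 0.75, 0.59, 0.70 and 0.59. For Hr96 they were the ubiquitin ligase gene Ube4A, the coatomer gene alphaCOP and the lipid kinase gene Pi4KIIIalpha (r = 0.96 each), and the helicase gene mle (0.95), which became 0.82, 0.86, 0.85 and 0.80. In JH3 replicate 1, the library with the lowest Hr96, these 4 genes also had their lowest level of all 19 libraries (12.3 FPKM for Ube4A and 14.8 for alphaCOP). With the authors' scaling they had their highest level in 20E replicate 6 (28.3 FPKM for Ube4A and 38.3 for alphaCOP). The ratio of that scale to total reads was lowest in this library (0.770), which raises all its genes. None of the 12 genes named for likeness passed against DMSO under either hormone. Likeness over 19 libraries is a description, since many genes share what sets these libraries apart. The genes were picked by it, so extremes they share with a member in single libraries are part of that choice.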

How the data were processed

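The authors deposited 1 table of FPKM values for 14001 genes and 19 libraries. Per the labels' protocols the libraries were poly(A)-selected and keep strand (dUTP). Tools listed in the submitters' processing notes are STAR, featureCounts, DESeq2 and bcl2fastq. Their versions and roles, the build and the annotation were not given in sources used here. Symbols came from a RefSeq table (Hsal_v8.6) that matched 13989 identifiers. No coordinates or sequences are given.

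Genes with FPKM of at least 1 in at least 5 libraries (9381) were fitted as log2(FPKM + 0.5) by limma 3.58.1 (R 4.3.3). The model held the 3 groups plus the run label, with variances moderated towards a trend. P-values are two-sided with a threshold of 0.05. Folds of genes near 1 FPKM are understated by the 0.5 added. The hormone effect by run was tested with interaction terms. Within-run fits used 1 run alone. Whole reads were read back from the regular grid of the FPKM values for 14001 genes (100%, within 0.02 reads), which gave depth, total-read scaling and a voom fit. Pair correlations used 100000 permutations. Python 3.11.15 with numpy 2.4.6, pandas 2.3.3, scipy 1.17.1 and matplotlib 3.10.9 were used, and the fit was tested on simulated data.

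The labels and series text call the libraries biological replicates. The members, gene lists and tests were chosen with earlier results of these data known. Named are the members, the nuclear receptor genes with a symbol, up to 4 passing members of each other list, and the 4 genes with a symbol most like each member. Smr, rig, Npc1a, cnc, Gs2 and the libraries singled out were chosen after their values were seen. Alternatives were other pseudocounts, filters, scalings, weights and covariates, and fits without single libraries.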

Additional observations from a re-analysis of the deposited data

Results flagged for a closer look

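In 39 groups of values (13 nuclear receptor genes in 3 groups) 5 held a library that stood apart from the others of its group, and chance alone flags about 1 in 20 groups. Hr96 in JH3 replicate 1 was 11.5 FPKM against 19.2 to 21.8 in the other JH3 libraries. E75 in 20E replicate 6 was 882 FPKM against 472 to 646, and ftz-f1 in the same library was 17.9 FPKM against 5.71 to 10.9. These are values with the authors' scaling, whose ratio to total reads was lowest in that library (0.770), which raises all its genes. The part of this scale in the 2 values was not tested. Hr83 was 0.0178 FPKM in DMSO replicate 3 and 0.0219 FPKM in 20E replicate 2 and was listed at 0 in the other libraries of those groups. A lone value above 0 always stands apart in this way, so the rate of 1 in 20 does not hold for Hr83.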

How the results depend on the processing

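Of 276 re-computed values of the members and their correlations, apart from fits without single libraries, 250 kept their sign and their side of the threshold, 3 lost and 4 gained a call, and 19 changed sign. With scaling to total reads the 20E value of Ecr became -0.02 and that of Hr96 -0.05, where the median of all genes was -0.07, so that relative to it they were 0.05 and 0.02 as before. On that scale the run value of Hr96 was 0.16 (not passing), and the correlations were 0.32 and 0.31 for Ecr and usp (levels and residuals, not passing), -0.47 for levels of Ecr and Hr96, and -0.35 and -0.07 for usp and Hr96. With library weights usp gave 0.00447 for 20E with JH3 and 0.47 for the mean of both hormones (passing), and Ecr 0.22 between runs (passing). There, in a model whose weights did not fully converge, the effects by run of Hr96 were -0.16 (20E), -0.17 (JH3) and 0.01 (20E with JH3). In run 190514 alone the 20E values were -0.02 (Ecr) and -0.00151 (Hr96), and usp passed for JH3 (0.87) and for both hormones (0.71). In run 200212 alone 20E with JH3 gave 0.07 (Ecr) and 0.18 (usp). Without 20E replicate 6 and JH3 replicate 1 the 20E values were -0.01 for Ecr and for Hr96, and the effects by run of Hr96 -0.04, -0.13 and 0.09. The cause of these changes was not tested.

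Over the 19 fits that leave out 1 library each, the 20E value ran from -0.00472 to 0.09 for Ecr and from -0.02 to 0.07 for Hr96. That of 20E with JH3 for usp ran from -0.14 to 0.06, and the run value of usp from -0.13 to 0.01. The 20E effect by run of usp ran from -0.42 to -0.03. The effects by run of Hr96 ran from -0.04 to 0.13 (20E), -0.13 to 0.26 (JH3) and -0.20 to 0.19 (20E with JH3).

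With the replicate number as a replicate block in place of the run label, Hr96 gave -0.01 for 20E, and 274, 96, 531 and 119 genes passed for 20E, JH3, 20E with JH3 and both hormones, against 313, 87, 501 and 129. The block changed no call of a member. Same-numbered libraries correlated from 0.05 to 0.55 in their deviations from group means, and from -0.38 to 0.50 once run means were removed too. Each number lies within 1 run, and the numbers were not taken as pairs because not every correlation was over 0.1. Counts of passing genes for 20E were 551 with library weights, 193 when the run label was dropped, 120 for run 190514 and 50 for run 200212. For JH3 they were 180, 49, 14 and 8, with 151 under total-read scaling, 134 without 20E replicate 6 and JH3 replicate 1, and 137 without 20E replicate 6. For 20E with JH3 they were 788, 313, 169 and 160. For both hormones they were 277, 81, 43 and 10, with 200 without those 2 libraries and 84 and 81 without DMSO replicate 3 or 4. For the JH3 effect by run 17 passed with library weights against 0. Run 200212 holds 2 DMSO libraries.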
